A study of Mus musculus with 10 samples.

Results

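The muscle ubiquitin ligases and sarcomere assembly factors are 10 genes, taken from a list of muscle ubiquitin ligases, muscle kelch proteins and myosin assembly factors and kept where the deposited expression table of 11228 genes holds them. They are Trim54, Trim55, Trim63, Fbxo32, Fbxo25, Klhl31, Klhl40, Klhl41, Unc45b and Smyd1. All 10 passed the filter of a mean of 1 FPKM (a fragment number divided by transcript length and by the size of the library) that left 10993 genes for testing.

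RNA was sequenced from mouse myotubes, the multinucleate cells formed by fused myoblasts, after 2 days of differentiation in culture. All 6 libraries came from gapmer-treated cells (a gapmer is a DNA-centred antisense oligonucleotide through which RNase H cuts the paired RNA). In 2 libraries this was the scrambled control GAP-scr, in 2 the gapmer set GAP-2 against the muscle long non-coding RNA Charme, and in 2 the set GAP-2/3 against the same RNA, and each group has a library A and a library B. A ChIRP-seq experiment, which pulls down the DNA bound by an RNA with tiling probes, had 1 library each for even probes, odd probes, input DNA and LacZ control probes. The labels name neither the cell line or strain nor the culture each library came from, and so each p-value measures only how far these libraries spread, which may be technical. Charme itself is not analysed here, and so the extent of its knock-down is not given.

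Ubiquitin ligases attach ubiquitin to chosen proteins, and many such proteins are then degraded by the proteasome. In striated muscle, the MuRF ligases bind titin and other sarcomere proteins, and the F-box protein atrogin-1 (Fbxo32) brings its targets to a cullin ligase. MuRF1 (Trim63) and atrogin-1 are the classic ligases of muscle atrophy, where FoxO transcription factors drive their genes. The muscle kelch proteins include adaptors of cullin 3 ligases and proteins that stabilise the thin filament. Unc45b, a chaperone that works with Hsp90, and Smyd1, a muscle methyltransferase, are needed for the folding and assembly of myosin into thick filaments.

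FPKM values keep no record of the number of reads, so the sequencing depth behind them is not known. The libraries of a group correlated across genes at 0.989 (GAP-scr), 0.995 (GAP-2) and 0.994 (GAP-2/3) on the log2(FPKM + 1) scale. Libraries GAP-scr A and GAP-2 A stood apart in Rn45s, a ribosomal RNA precursor, at 3387 and 4090 FPKM against 93.2 to 176 FPKM in the other libraries. All 14 myotube markers were listed, and their summed level was 19618 and 20729 FPKM in GAP-scr, 11876 and 12605 FPKM in GAP-2, and 13769 and 13394 FPKM in GAP-2/3. Pax7, a gene of muscle stem cells, was not listed, and of the endothelial markers 0 of 5 were listed.

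Across the mean of both gapmer arms, 6 of the 10 genes were lower than in GAP-scr and 1 was higher at an adjusted p under 0.05 in limma, a linear model fitted over all tested genes with Benjamini-Hochberg adjustment. Trim54, Trim55, Trim63, Klhl31, Klhl40 and Unc45b fell, Fbxo25 rose, and Fbxo32, Klhl41 and Smyd1 did not pass the test. Among all tested genes 9.57% were lower and 24.5% higher by the same rule. The median log2 change of the 10 genes was -0.33, against 0.10 for all tested genes. Scaling the libraries to a common median moved the median of all genes to 0.018 and the split of calls over all genes from 2698 higher and 1052 lower to 1618 higher and 1556 lower, with 6 of the 10 genes lower and 1 higher as before. In bulk RNA, fewer cells of a type and less RNA per cell cannot be told apart. Leaving out 1 library at a time kept between 4 and 6 of these 7 calls, with 4 kept (3 lower, 1 higher) without GAP-2/3 A. Without GAP-scr A and GAP-2 A, the libraries with high Rn45s, 4 genes were lower and 1 higher.

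**Figure D1:**
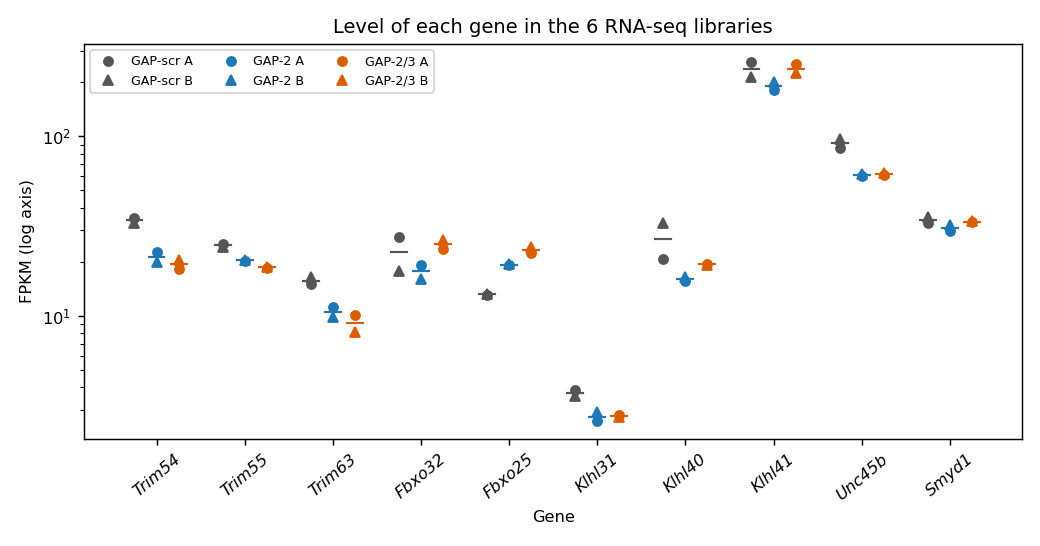
FPKM of each of the 10 genes on a log axis, with 1 symbol for each library (circles A, triangles B), coloured by group, and a bar at the mean of each group. Fbxo25 sits higher in all 4 gapmer libraries than in GAP-scr, Trim54, Trim55, Trim63, Klhl31, Klhl40 and Unc45b sit lower, and the GAP-scr libraries of Fbxo32 and Klhl40 lie far apart.

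In GAP-2 alone, 4 of the 10 fell (Trim54, Trim63, Klhl40 and Unc45b) and 1 rose (Fbxo25), where 4.18% of all tested genes were lower and 10.4% higher. In GAP-2/3 alone, 5 fell (Trim54, Trim55, Trim63, Klhl31 and Unc45b) and 1 rose (Fbxo25), where 11.3% of all tested genes were lower and 28.0% higher. In GAP-2 the median log2 change of the 10 genes was -0.33 beside 0.07 for all tested genes, and in GAP-2/3 it was -0.36 beside 0.13. Both arms were set against the same 2 GAP-scr libraries, so that their values are given side by side and their likeness is not a result. Of the 5 calls in GAP-2 only 1 was left without GAP-2 A (Trim54), and likewise without GAP-2 B (Unc45b). Without both libraries with high Rn45s, 4 genes were lower and 0 higher in GAP-2 (limma, with Fbxo25 at an adjusted p of 0.0519), and 4 were lower and 2 higher in GAP-2/3, where Fbxo32 was added. By level alone, 8 of the 10 genes had both GAP-2 libraries below both GAP-scr libraries, 1 (Fbxo25) had them above, and Fbxo32 overlapped, where 22.4% of all tested genes lay below and 39.8% above. In GAP-2/3, 6 lay below, Fbxo25 lay above, and Fbxo32, Klhl41 and Smyd1 overlapped, where 22.3% of all tested genes lay below and 46.7% above.

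**Figure D2:**
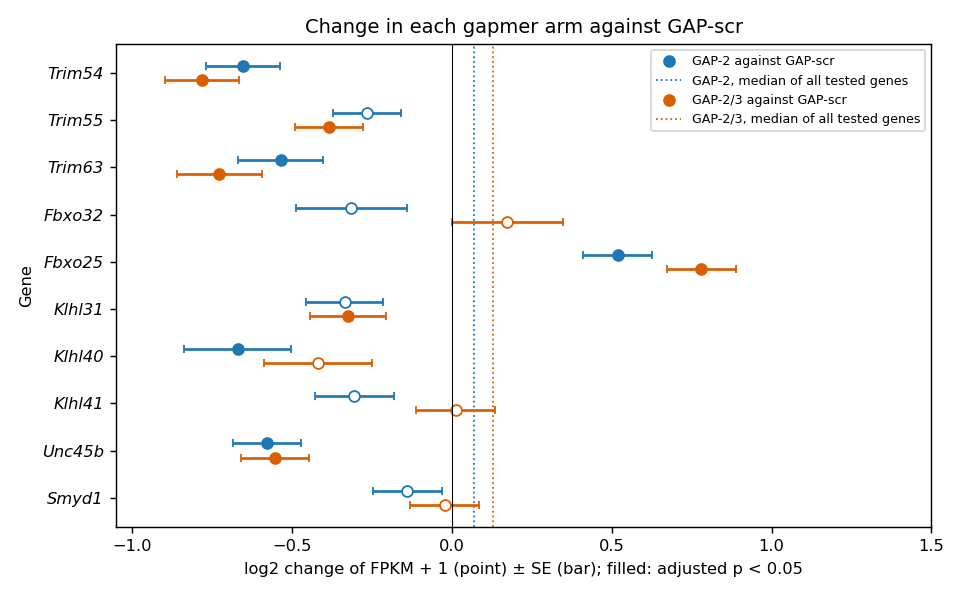
Log2 change of FPKM + 1 against GAP-scr for each gene in GAP-2 (blue) and GAP-2/3 (orange), with bars of 1 SE, filled points at an adjusted p under 0.05 and dotted lines at the median of all tested genes. Fbxo25 lies to the right in both arms at 0.52 and 0.78, Trim54, Trim63 and Unc45b lie to the left with filled points in both, and Smyd1 lies near 0.

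The MuRF ligases are RING-finger proteins of the TRIM family that can pair with each other and sit at the Z-disc and M-band of the sarcomere. Trim63 encodes MuRF1, which ubiquitinates thick-filament proteins during atrophy. Trim55 encodes MuRF2, which associates with microtubules and titin in developing muscle, and Trim54 encodes MuRF3, which binds and stabilises microtubules. The start regions of Trim54 (chr5:31116362-31116611, plus strand) and Trim63 (chr4:134314870-134315119, plus strand) are printed as the 250 bases before the RefSeq gene start in GRCm38.p6, to show what lies ahead of the pair of MuRF genes that passed the test in both arms. Capitals mark matches to CANNTG (the general E-box form, whose bound factors include MyoD and myogenin), to GTAAACA on either strand (a FoxO motif), and to TATAAA on either strand.
Trim54: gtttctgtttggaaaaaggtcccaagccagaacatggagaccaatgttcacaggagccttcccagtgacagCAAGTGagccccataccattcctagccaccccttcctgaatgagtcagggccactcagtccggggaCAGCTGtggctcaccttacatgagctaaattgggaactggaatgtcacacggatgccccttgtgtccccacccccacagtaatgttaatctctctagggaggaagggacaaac
Trim63: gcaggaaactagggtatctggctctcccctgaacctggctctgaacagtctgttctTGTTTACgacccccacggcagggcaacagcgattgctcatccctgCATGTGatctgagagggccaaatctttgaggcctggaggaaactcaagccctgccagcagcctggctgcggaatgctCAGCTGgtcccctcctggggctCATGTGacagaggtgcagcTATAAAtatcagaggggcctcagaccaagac

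Trim54 has 2 E-box matches in this window, CAAGTG and CAGCTG. Trim63 has 3 E-box matches, a TATAAA match that begins 31 bases before the start, and the FoxO motif written TGTTTAC on the printed strand, which begins 194 bases before the start. Of 32851 RefSeq start regions of this length, 66.2% hold an E-box match, 3.17% the FoxO motif and 12.4% TATAAA. A match shows that the letters are there, not that a factor binds. RefSeq start regions were matched for 7 of the 10 genes.

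Trim54 was at 35.1 and 33.1 FPKM in the GAP-scr libraries, at 22.6 and 20.1 FPKM in GAP-2 and at 18.2 and 20.6 FPKM in GAP-2/3. All 4 gapmer libraries lay below both GAP-scr libraries. The log2 change was -0.65 ± 0.12 (SE) in GAP-2 (limma adjusted p = 0.00433) and -0.78 ± 0.12 in GAP-2/3 (limma adjusted p = 0.00059). For the mean of both arms it was -0.72 ± 0.10 (limma adjusted p = 0.000539), and it passed in 15 of 15 alternative settings. In GAP-2 alone the call was lost without GAP-2 B (-0.57, limma adjusted p = 0.0640).

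Trim63 was at 15.0 and 16.5 FPKM in GAP-scr, 11.3 and 9.83 FPKM in GAP-2, and 10.1 and 8.12 FPKM in GAP-2/3. Again no gapmer library reached the lower GAP-scr library. The log2 change was -0.54 ± 0.13 (SE) in GAP-2 (limma adjusted p = 0.0222), -0.73 ± 0.13 in GAP-2/3 (limma adjusted p = 0.00192) and -0.63 ± 0.12 for the mean of both arms (limma adjusted p = 0.00236). The last of these passed in 15 of 15 alternatives. The GAP-2 call was lost without GAP-scr B (-0.47, limma adjusted p = 0.0611), without GAP-2 A (-0.62, limma adjusted p = 0.0552) and without GAP-2 B (-0.45, limma adjusted p = 0.212).

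Trim55 had the smallest estimated change of the 3 MuRF genes, and the difference from the other MuRF genes was not tested. Its level was 25.2 and 24.2 FPKM in GAP-scr, 20.3 and 20.5 FPKM in GAP-2, and 18.6 and 18.8 FPKM in GAP-2/3. The groups did not overlap, and the libraries of each group lay close together. The change passed for the mean of both arms (-0.33 ± 0.09 (SE), limma adjusted p = 0.0189) and in GAP-2/3 (-0.39 ± 0.11, limma adjusted p = 0.0146), and was -0.27 ± 0.11 in GAP-2 (limma adjusted p = 0.112). The call for the mean of both arms was lost without GAP-2 A (-0.32, limma adjusted p = 0.0736), without GAP-2 B (-0.33, limma adjusted p = 0.0770), and without GAP-2/3 A (-0.32, limma adjusted p = 0.0513). Without GAP-scr A and GAP-2 A, the libraries with high Rn45s, it was -0.29 (limma adjusted p = 0.156). The GAP-2/3 call was lost without GAP-2/3 A (-0.38, limma adjusted p = 0.0784), without GAP-2/3 B (-0.39, limma adjusted p = 0.0502) and without both libraries with high Rn45s (-0.36, limma adjusted p = 0.0809).

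Summed over the 3 genes, the MuRF transcripts came to 75.3 and 73.8 FPKM in GAP-scr, 54.1 and 50.4 FPKM in GAP-2, and 46.9 and 47.5 FPKM in GAP-2/3. FPKM is scaled to transcript length, so that the genes can be set beside each other. Trim55 made up 33.5% and 32.8% of this sum in GAP-scr, 37.5% and 40.7% in GAP-2, and 39.5% and 39.6% in GAP-2/3. Its share was higher in every gapmer library than in either GAP-scr library. Trim54 held 46.6% and 44.9% in GAP-scr, and between 38.9% and 43.4% in the 4 gapmer libraries. Trim63 held 17.1% to 22.3% across all 6 libraries, with overlapping groups. The differences in share were not tested.

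**Figure D3:**
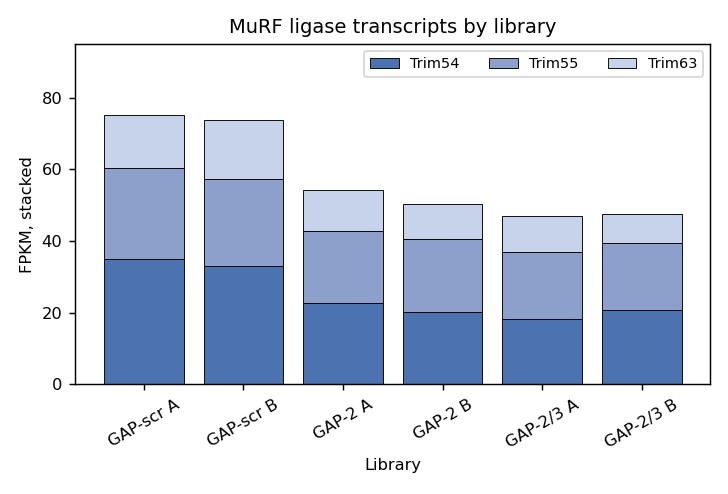
FPKM of Trim54, Trim55 and Trim63 stacked for each of the 6 libraries. The stacks reach 75.3 and 73.8 FPKM in GAP-scr and between 46.9 and 54.1 FPKM in the gapmer libraries, and the Trim54 layer is lower in each gapmer library than in either GAP-scr library.

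F-box proteins are the substrate-binding subunits of SCF ligases, which are built on cullin 1 and Skp1. Fbxo32 encodes atrogin-1, whose known targets include MyoD and the initiation factor subunit Eif3f. Fbxo25 encodes the F-box protein most similar to atrogin-1. Fbxo25 passed the test and Fbxo32 did not, and the difference between their changes was not tested.

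Fbxo25 was the only 1 of the 10 genes that rose. Its level was 13.1 and 13.3 FPKM in GAP-scr, 19.1 and 19.5 FPKM in GAP-2, and 22.5 and 24.2 FPKM in GAP-2/3. The libraries of each group lay close together, and those of GAP-2/3 lay above those of GAP-2. The log2 change was 0.52 ± 0.11 (SE) in GAP-2 (limma adjusted p = 0.0101), 0.78 ± 0.11 in GAP-2/3 (limma adjusted p = 0.00042) and 0.65 ± 0.09 for the mean of both arms (limma adjusted p = 0.000658). The last of these passed in 15 of 15 alternatives and ran from 0.56 to 0.68. The GAP-2 call was lost without GAP-2 A (0.53, limma adjusted p = 0.0811), without GAP-2 B (0.50, limma adjusted p = 0.111) and without both libraries with high Rn45s (0.52, limma adjusted p = 0.0519).

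Fbxo32 was at 27.4 and 17.9 FPKM in GAP-scr, 19.3 and 16.1 FPKM in GAP-2, and 23.7 and 26.6 FPKM in GAP-2/3. The GAP-scr libraries spanned most of the range, and both arms overlapped them. The log2 change for the mean of both arms was -0.07 ± 0.15 (SE), with a 95% interval from -0.40 to 0.26 (limma adjusted p = 0.741). It was -0.31 ± 0.17 in GAP-2 (limma adjusted p = 0.230) and 0.17 ± 0.17 in GAP-2/3 (limma adjusted p = 0.447). The GAP-scr library in use set the direction of the mean change and of the GAP-2/3 change: without GAP-scr A they were 0.23 and 0.47. In GAP-2 the sign of the change turned in none of the alternatives. Without GAP-scr B the mean change was -0.37 (limma adjusted p = 0.0499), that in GAP-2 was -0.61 (limma adjusted p = 0.0149) and that in GAP-2/3 was -0.12 (limma adjusted p = 0.504). The ratio of Fbxo25 to Fbxo32 was 0.477 and 0.742 in GAP-scr, 0.988 and 1.21 in GAP-2, and 0.948 and 0.910 in GAP-2/3, so that it was higher in every gapmer library than in either GAP-scr library. This ratio was not tested.

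The kelch proteins of the list differ in what they hold. Klhl40 and Klhl41 stabilise the thin-filament proteins nebulin and leiomodin 3, and loss of either causes nemaline myopathy. Klhl31 is a muscle kelch protein linked to the turnover of filamin C. The start region of Klhl41 (chr2:69669870-69670119, plus strand, GRCm38.p6, RefSeq) is shown because, of the 7 start regions matched, it alone held a match to the MEF2 motif, which 2.92% of all start regions hold. Capitals mark that match, CTATATTTAG, which begins 63 bases before the start, and 4 E-box matches.
Klhl41: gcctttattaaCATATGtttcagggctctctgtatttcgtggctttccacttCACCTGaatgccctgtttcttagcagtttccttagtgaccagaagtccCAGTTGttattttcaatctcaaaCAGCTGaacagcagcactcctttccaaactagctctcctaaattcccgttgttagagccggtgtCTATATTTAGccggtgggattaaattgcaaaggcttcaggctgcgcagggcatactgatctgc

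Klhl41 was the most abundant of the 10 genes, at 259.7 and 215 FPKM in GAP-scr, 181 and 201 FPKM in GAP-2, and 253 and 224 FPKM in GAP-2/3. Both GAP-2 libraries lay below the GAP-scr libraries, and the GAP-2/3 libraries lay among them. The log2 change for the mean of both arms was -0.15 ± 0.11 (SE), with a 95% interval from -0.38 to 0.09 (limma adjusted p = 0.301). It was -0.31 ± 0.12 in GAP-2 (limma adjusted p = 0.116) and 0.01 ± 0.12 in GAP-2/3 (limma adjusted p = 0.945). Without GAP-scr B the GAP-2 change was -0.44 and passed (limma adjusted p = 0.0303). Klhl41 made up 91.3% and 85.5% of the summed FPKM of the 3 kelch genes in GAP-scr and 90.8% to 91.9% in the gapmer libraries.

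Klhl40 was at 20.9 and 32.8 FPKM in GAP-scr, 15.7 and 16.4 FPKM in GAP-2, and 19.5 and 19.1 FPKM in GAP-2/3. The gapmer libraries lay below both GAP-scr libraries, of which B was far above A. The log2 change was -0.67 ± 0.17 (SE) in GAP-2 (limma adjusted p = 0.0229), -0.42 ± 0.17 in GAP-2/3 (limma adjusted p = 0.0666) and -0.55 ± 0.15 for the mean of both arms (limma adjusted p = 0.0151). GAP-scr B carried much of this: without it the mean change was -0.23 (limma adjusted p = 0.135) and that in GAP-2 was -0.36 (limma adjusted p = 0.0750). Without GAP-scr A the GAP-2/3 change was -0.73 and passed (limma adjusted p = 0.000832). Of the other libraries, leaving out GAP-2/3 A or GAP-2/3 B also ended the mean call (limma adjusted p = 0.0705 and 0.0625), with the change near its full value at -0.55 and -0.54. The GAP-2 call ended as well without GAP-2 A, GAP-2 B, GAP-2/3 A or GAP-2/3 B (limma adjusted p = 0.0814, 0.0613, 0.0725 and 0.0728), and with only the compared groups in the fit (limma adjusted p = 0.0726). With the replicate letter as a block the GAP-2/3 change passed (-0.42, limma adjusted p = 0.0206).

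Klhl31 was the least abundant of the 10 genes, at 3.88 and 3.58 FPKM in GAP-scr, 2.60 and 2.90 FPKM in GAP-2, and 2.80 and 2.75 FPKM in GAP-2/3. The gapmer libraries lay below both GAP-scr libraries, and the GAP-2/3 values lay within the GAP-2 range. The log2 change was -0.33 ± 0.10 (SE) for the mean of both arms (limma adjusted p = 0.0303), -0.34 ± 0.12 in GAP-2 (limma adjusted p = 0.0824) and -0.33 ± 0.12 in GAP-2/3 (limma adjusted p = 0.0499). At such levels the added 1 FPKM shrinks the change. The mean call was lost when GAP-scr A (-0.29, limma adjusted p = 0.0909), GAP-2 A (-0.30, 0.111), GAP-2 B (-0.36, 0.0705), GAP-2/3 A (-0.34, 0.0708) or GAP-2/3 B (-0.33, 0.0630) was left out, and without both libraries with high Rn45s (-0.26, 0.226). With either scaling of the libraries the GAP-2 change passed, at -0.45 (quantile normalization, limma adjusted p = 0.0314) and -0.39 (1 common median, limma adjusted p = 0.0498). The GAP-2/3 call was lost when any 1 of the 6 libraries was left out (limma adjusted p from 0.0512 to 0.147) and with the replicate letter as a block (limma adjusted p = 0.0640). It was also lost without both libraries with high Rn45s (limma adjusted p = 0.187), with only the compared groups in the fit (0.0955) and with a pseudocount of 0.1 (0.0576), in all 10 of 15 alternatives.

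Unc45b binds the myosin motor domain through its UCS domain and Hsp90 through its TPR domain. Its start region (chr11:82911003-82911252, plus strand, GRCm38.p6, RefSeq) is shown as that of the assembly factor that passed the test in both arms. Capitals mark 2 E-box matches, CACGTG and CACCTG, of which the second begins 43 bases before the start.
Unc45b: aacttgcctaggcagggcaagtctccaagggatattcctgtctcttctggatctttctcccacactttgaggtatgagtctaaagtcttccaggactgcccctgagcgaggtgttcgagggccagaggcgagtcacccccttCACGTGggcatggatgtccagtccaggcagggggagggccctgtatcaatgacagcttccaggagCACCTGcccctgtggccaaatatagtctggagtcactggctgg

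Unc45b was at 85.9 and 96.7 FPKM in GAP-scr, 59.9 and 61.5 FPKM in GAP-2, and 60.9 and 62.8 FPKM in GAP-2/3. The 4 gapmer libraries lay within a few FPKM of each other and well below GAP-scr. The log2 change was -0.58 ± 0.11 (SE) in GAP-2 (limma adjusted p = 0.00532), -0.55 ± 0.11 in GAP-2/3 (limma adjusted p = 0.00256) and -0.57 ± 0.09 for the mean of both arms (limma adjusted p = 0.00131), and the last of these passed in 15 of 15 alternatives. The GAP-2 call was lost without GAP-2 A (-0.56, limma adjusted p = 0.0528).

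The summed FPKM of Myh1, Myh3, Myh4, Myh7 and Myh8, the myosin heavy chain genes that supply the client of Unc45b, was 959 ± 20.7 FPKM (SD, n = 2) in GAP-scr. It was 638 ± 79.1 FPKM (SD, n = 2) in GAP-2, and in GAP-2/3 it was 789 ± 52.8 FPKM (SD, n = 2). Myh3 alone held a mean of 931 FPKM in GAP-scr, 614 FPKM in GAP-2 and 766 FPKM in GAP-2/3, so that the sum mostly follows Myh3. Unc45b came to 9.10% and 9.93% of that sum in GAP-scr, 10.3% and 8.87% in GAP-2, and 8.10% and 7.60% in GAP-2/3. The GAP-2 values overlapped GAP-scr and the GAP-2/3 values lay below it, with no test made. Unc45a, the general cell paralogue of Unc45b, was at 7.36 and 6.98 FPKM in GAP-scr and 4.35 to 6.91 FPKM in the gapmer libraries. Its log2 change was -0.26 ± 0.14 (SE) for the mean of both arms (limma adjusted p = 0.160).

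Smyd1, which binds the muscle form of Naca and is found at the M-band, was at 32.8 and 35.4 FPKM in GAP-scr, 29.8 and 31.9 FPKM in GAP-2, and 33.2 and 33.8 FPKM in GAP-2/3. The GAP-2/3 libraries lay between the GAP-scr libraries and the GAP-2 libraries just below them. The log2 change for the mean of both arms was -0.08 ± 0.09 (SE), with a 95% interval from -0.28 to 0.12 (limma adjusted p = 0.515). It was -0.14 in GAP-2 (limma adjusted p = 0.388) and -0.02 in GAP-2/3 (limma adjusted p = 0.876). Naca itself, counted over all its transcripts, changed by 0.11 ± 0.10 (limma adjusted p = 0.407).

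When GAP-2/3 was set against GAP-2 directly, 0 of the 10 genes passed limma's adjusted threshold, where 6.50% of all tested genes were higher and 3.65% lower in GAP-2/3. At an unadjusted p under 0.05 there were 3: Fbxo32 (0.49 ± 0.17 (SE), limma adjusted p = 0.0981), Klhl41 (0.32 ± 0.12, limma adjusted p = 0.128) and Fbxo25 (0.26, limma adjusted p = 0.150). All 3 were higher in GAP-2/3, where 16.8% of all tested genes were higher and 9.12% lower at this unadjusted threshold. Fbxo32 passed with the replicate letter as a block (limma adjusted p = 0.0217), and without both libraries with high Rn45s (0.61, limma adjusted p = 0.00620). Fbxo32 and Klhl41 both passed without GAP-scr A (limma adjusted p = 0.0126 and 0.0397) and without GAP-scr B (limma adjusted p = 0.0122 and 0.0391). The other 7 genes differed between the arms by log2 values from -0.19 (Trim63) to 0.25 (Klhl40).

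In GAP-scr the order of the levels was Klhl41, Unc45b, Trim54, Smyd1, Klhl40, Trim55, Fbxo32, Trim63, Fbxo25 and Klhl31. Their means ran from 237 FPKM, above 96.9% of tested genes, to 3.73 FPKM, above 18.8%. The library ranges overlapped between Trim54 and Smyd1, between Klhl40 and Trim55, and between Trim55 and Fbxo32, so that these neighbours were not told apart. In GAP-2/3, Fbxo25 was the fifth at 23.3 FPKM, above Trim54 at 19.4 FPKM, and the library ranges of that pair did not overlap. In GAP-scr it had been the ninth at 13.2 FPKM, below Trim54 at 34.1 FPKM.

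Other genes of these pathways were taken from lists chosen by function. For the mean of both arms, 24.5% of all tested genes rose and 9.57% fell, with a median log2 change of 0.10. Of 17 other ubiquitin ligases linked to muscle, 3 rose and 4 fell in the mean of both arms, with a median log2 change of -0.08. Trim72, a membrane repair ligase also called MG53, fell by 0.74 on the log2 scale (limma adjusted p = 0.000511), from 93.5 and 114 FPKM to 52.9 to 70.5 FPKM. Ubr4 fell by 0.57 on the log2 scale (limma adjusted p = 0.00330), while Wwp1 rose by 0.51 (limma adjusted p = 0.00568) and Traf6 by 0.47 (limma adjusted p = 0.00904). Neither Wwp1 (0.28, limma adjusted p = 0.152) nor Traf6 (0.37, limma adjusted p = 0.0765) passed in GAP-2. Both passed in GAP-2/3, at 0.73 (limma adjusted p = 0.00143) and 0.57 (limma adjusted p = 0.00594). Stub1, the ligase CHIP that works with Hsp70 and Hsp90, changed by -0.21 ± 0.10 (limma adjusted p = 0.113). Taken by arm, Stub1 was lower in GAP-2/3 (-0.35, limma adjusted p = 0.0297) and did not pass in GAP-2 (-0.07, limma adjusted p = 0.683).

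Of 12 genes of the cullin ligase core, which carries F-box and kelch adaptors, 4 rose (Nae1, Dcun1d1, Cul1 and Skp1a) and 0 fell in limma, with a median of 0.17. Over all tested genes the median was 0.10, with 24.5% higher and 9.57% lower. Cul1, the scaffold of SCF ligases, rose by 0.35 ± 0.09 (SE, limma adjusted p = 0.0141), and Cul3, the scaffold for kelch adaptors, changed by -0.01 ± 0.12 (limma adjusted p = 0.949). The core genes passed the test 0 times in GAP-2 and 6 times, all higher, in GAP-2/3. Of all tested genes 10.4% were higher in GAP-2 and 28.0% in GAP-2/3. Of 12 E2 enzymes that have been tested with MuRF1, 3 rose and 2 fell, with a median of 0.15. Ube2d2 was also on that list but was not found under this symbol, and Ube2d2a was not counted with the 12. Ube2e1 rose by 0.65 ± 0.10 (limma adjusted p = 0.000926), from 32.7 and 34.3 FPKM to 47.9 to 58.9 FPKM.

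Of 15 myosin chaperones and co-factors, 4 rose (Apobec2, Hsp90b1, Hsp90aa1 and Hspa8) and 0 fell in the mean of both arms, with a median of 0.11. Over all tested genes 24.5% rose and 9.57% fell, with a median of 0.10. Apobec2 rose in GAP-2/3 (0.96, limma adjusted p = 0.0001) but not in GAP-2 (0.07, limma adjusted p = 0.688). Hsp90aa1, which encodes an Hsp90 that works with Unc45b, rose by 0.59 ± 0.11 (SE, limma adjusted p = 0.00316). It was at 313 and 238 FPKM in GAP-scr and at 389 to 430 FPKM in the gapmer libraries, so that it moved the other way from Unc45b. Hsp90ab1, a more abundant Hsp90 gene of the list, was at 1066 and 987 FPKM in GAP-scr. Its log2 change was -0.05 ± 0.11 (SE, limma adjusted p = 0.766).

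Of 25 clients and partners of the 10 proteins, 16 fell and 2 rose in the mean of both arms, with a median log2 change of -0.44. Among all tested genes 9.57% fell and 24.5% rose, with a median of 0.10. Apart from Myod1 and Eif3f, the genes that fell encode proteins of the sarcomere and its Z-disc. Neb, the nebulin gene whose protein Klhl40 and Klhl41 stabilise, was at 62.6 and 40.2 FPKM in GAP-scr, 25.2 and 24.9 FPKM in GAP-2, and 23.0 and 24.1 FPKM in GAP-2/3, a log2 change of -1.02 ± 0.14 (SE, limma adjusted p = 0.000574). Nrap (-0.86, limma adjusted p = 0.000201), a scaffold of myofibril assembly, and Flnc (-0.84, limma adjusted p = 0.000233), which encodes filamin C, also fell. Lmod3, the other client of Klhl40, changed by -0.13 for the mean of both arms (limma adjusted p = 0.311), and was at 46.1 and 48.3 FPKM in GAP-scr, 33.4 and 38.3 FPKM in GAP-2, and 53.0 and 50.7 FPKM in GAP-2/3. It fell in GAP-2 (-0.39, limma adjusted p = 0.0361) and was higher in GAP-2/3 than in GAP-2 by 0.52 (limma adjusted p = 0.0126). Myod1 (-0.57, limma adjusted p = 0.00220) and Eif3f (-0.39, limma adjusted p = 0.0337), both targets of atrogin-1, fell at the RNA level. Eif3f passed in GAP-2/3 (-0.61, limma adjusted p = 0.00719) but not in GAP-2 (-0.16, limma adjusted p = 0.467). Sqstm1, the ubiquitin-binding autophagy receptor p62, rose by 0.61 (limma adjusted p = 0.000991).

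Of 21 FoxO and atrophy regulators, 3 rose and 4 fell in the mean of both arms, with a median of -0.16. The share of all tested genes was 24.5% higher and 9.57% lower, with a median of 0.10. By arm, 2 of the 21 rose and 1 fell in GAP-2, where 10.4% of all tested genes rose and 4.18% fell. In GAP-2/3, 3 rose and 8 fell, where 28.0% of all tested genes rose and 11.3% fell. Sesn1 (0.59, limma adjusted p = 0.00121) and Ctsl (0.50, limma adjusted p = 0.00233) rose, and Gadd45a (-0.46, limma adjusted p = 0.00602) and Nfkb1 (-0.42, limma adjusted p = 0.00981) fell. Neither Sesn1 (0.30, limma adjusted p = 0.0874) nor Gadd45a (-0.23, limma adjusted p = 0.194) passed in GAP-2. Both passed in GAP-2/3, at 0.88 (limma adjusted p = 0.000193) and -0.68 (limma adjusted p = 0.00126). Of 11 muscle transcription factors, 5 fell and 0 rose, with a median of -0.24. Tead4 (-0.65, limma adjusted p = 0.000678), Mkl1 (-0.50, limma adjusted p = 0.00469), Mef2d (-0.53, limma adjusted p = 0.00568) and Myog (-0.32, limma adjusted p = 0.0336), the gene of myogenin, were among them. Myog passed in GAP-2 (-0.54, limma adjusted p = 0.0141) but not in GAP-2/3 (-0.11, limma adjusted p = 0.498). Mkl1 did not pass in GAP-2 (-0.33, limma adjusted p = 0.0881).

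**Figure D4:**
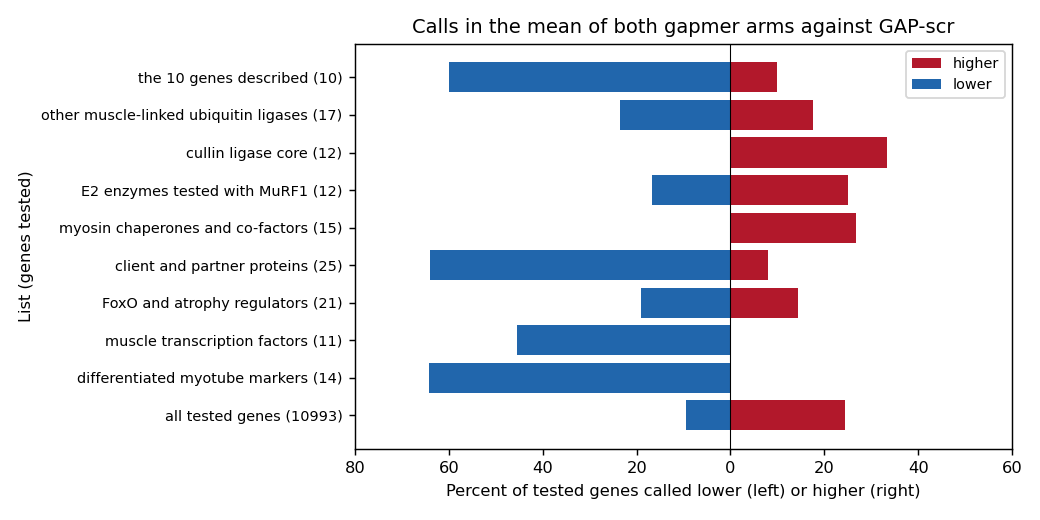
Percent of the tested genes of each list drawn (marker lists other than that of myotubes are not drawn) that were lower (bars to the left) or higher (bars to the right) in the mean of both arms at a limma adjusted p under 0.05, with the number tested in brackets. Of the lists drawn, the 10 genes, their clients and partners and the myotube markers reach farthest to the left, the cullin core and the myosin chaperones have bars to the right only, and all tested genes stand at 9.57% lower and 24.5% higher.

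Genes of the same families outside the list were counted as well. Of 29 other tested Trim genes 7 rose and 1 fell (median 0.14), of 24 other Fbxo genes 9 rose and 1 fell (median 0.16), and of 21 other Klhl genes 3 rose and 2 fell (median 0.01), all for the mean of both arms. Among all tested genes 24.5% rose and 9.57% fell, with a median of 0.10.

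Most markers of differentiated myotubes fell, as did 6 of the 10 genes, while Fbxo25 rose. Of the 14 markers 9 fell and 0 rose in the mean of both arms, where 9.57% of all tested genes fell and 24.5% rose. The median log2 change of the markers was -0.47, beside 0.10 for all tested genes. Of the 10 genes, 4 (Trim54, Trim63, Klhl40 and Unc45b) had a change more negative than the marker median and 6 did not. By arm the split differed. In GAP-2 (marker median -0.58) 3 were more negative and 7 less, and in GAP-2/3 (marker median -0.30) 6 were more negative and 4 less. The summed level of the 7 listed markers of undifferentiated myoblasts was 65.7 and 70.7 FPKM in GAP-scr, 74.4 and 83.2 FPKM in GAP-2, and 102 and 98.1 FPKM in GAP-2/3. Of these 7 markers 3 rose in the mean of both arms, 1 in GAP-2 and 5 in GAP-2/3. By the same rule 10.4% of all tested genes were higher in GAP-2 and 28.0% in GAP-2/3. The 7 listed fibroblast markers summed to 2109 and 2094 FPKM in GAP-scr, 2223 and 1908 FPKM in GAP-2, and 1422 and 1642 FPKM in GAP-2/3. In the mean of both arms 3 were higher and 1 lower, in GAP-2 1 and 0, and in GAP-2/3 3 and 2. The 5 listed smooth muscle markers, which early myotubes also express, summed to 2195 and 2438 FPKM in GAP-scr and 1432 to 1644 FPKM in the gapmer libraries. All 5 fell in the mean of both arms, 4 in GAP-2 and 3 in GAP-2/3. Of the macrophage markers only Cd68 was listed, at 0.374 to 3.54 FPKM, and the 2 listed adipocyte markers summed to 2.10 to 6.29 FPKM. The part of differentiation, or of any of these cell types, in the changes of the 10 genes was not tested.

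For each gene, the most similar profiles were sought by Pearson's r of log2(FPKM + 1) over the 6 libraries among the 8499 genes whose mean reached 5 FPKM. These r describe 6 points that share 3 group means, and carry no test. Trim54 was close to Mta1 (0.998) and Inppl1 (0.995), and Trim55 to Rrp12 (0.993), Igf2 (0.992) and Fndc5 (0.991). Unc45b was closest to Cilp (0.994), Smox (0.993) and the skeletal actin gene Acta1 (0.992), and Klhl31 to Rbm24 (0.993), Dync1li1 (0.991) and Mettl22 (0.986). Fbxo25 was closest to Tlr2 (0.997), Galnt7 and Praf2 (both 0.996). They were higher in all 4 gapmer libraries than in GAP-scr, a pattern that the choice by r favours.

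Smyd1 was closest to Prmt7 (0.998), Gpn1 (0.996) and Musk (0.996), and Klhl40 to the desmin gene Des (0.987), Fam20c (0.986) and Cotl1 (0.976), a pattern in which GAP-scr B stands highest. The nearest profiles of Trim63 were Tmem38b (0.981), Acy1 (0.971) and Serinc2 (0.970), and those of Fbxo32 were Nudt9 (0.981), Htra3 (0.981) and Vps13c (0.973). Klhl41 had the lowest r with its nearest genes, at 0.953 for Ube2d2a, itself an E2 enzyme gene, 0.952 for Nfu1 and 0.951 for Mss51.

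Fbxo25 was also the only 1 of the 10 genes under a ChIRP peak. The authors' merged list holds 798 peaks with a score each from the authors, from 49.18 to 6383.90 with a median of 2913.17. It gives no separate peaks for the even and odd probes, so that no replicate check was possible. The Fbxo25 span (chr8:13907736-13942875, GRCm38.p6) holds 2 of them. The first, chr8:13923746-13923902, is 157 bp long and has a score of 6383.90, the highest in the list, which 13 peaks share. The second, chr8:13934746-13934878, is 133 bp long and has a score of 5532.71, rank 38, which 17 peaks share. They lie 45.8% and 77.1% of the way along the span from its lower coordinate, and whether they fall in exons or introns was not determined. The positions were read as GRCm38 although the submitters' processing notes give mm9, because a peak on chromosome X lies past the end of that chromosome in mm9 (a length from general knowledge, in no file used here). With another build, the assignment of peaks to genes would have to be made anew.

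**Figure D5:**
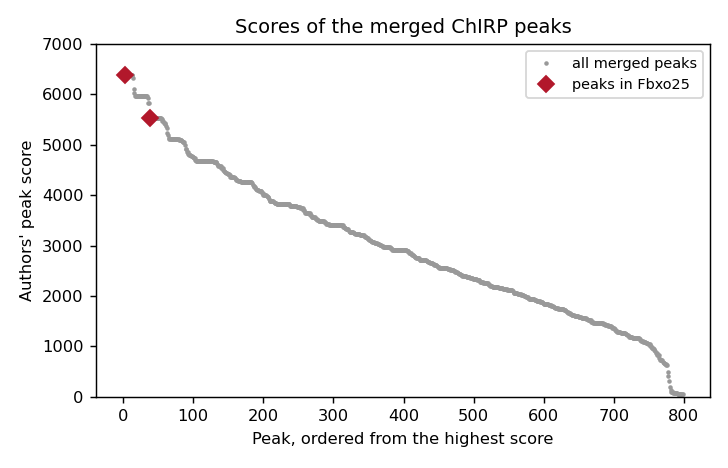
Authors' score of each of the 798 merged ChIRP peaks, ordered from the highest, with the 2 peaks inside Fbxo25 as red diamonds. They sit at 6383.90, the top of the list, and at 5532.71, both above the median of 2913.17.

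Of 10950 tested genes matched to RefSeq, 191 (1.74%) lay under a peak, 8 of them under at least 2 peaks, and 5 under a peak with the highest score, which were Fbxo25, Fert2, Nav1, Plcl2 and Sema3a. Among the 191, 37 rose and 37 fell in the mean of both arms, where 24.5% of all tested genes rose and 9.57% fell. The median log2 change of the 191 was 0.03, beside 0.10 for all tested genes. Among the 8 with at least 2 peaks, Fbxo25 alone rose and Gse1 and Maml3 fell. Whether the peaks in Fbxo25 bear on its level was not tested. The nearest peak to each of the other 9 genes lay between 238 kb (Trim63) and 11.5 Mb (Smyd1) away, where the median over tested genes was 0.918 Mb. Within 10 kb, Fbxo25 was again the only 1 of the 10 genes with a peak.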

How the data were processed

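The authors deposited FPKM values for 11228 genes, 1 column for each of the 6 libraries. Per the submitters' processing notes, the tools included TopHat2, Cufflinks, Cuffdiff, MACS and bedtools, with roles and versions not stated, and the build was mm9. No value is exactly 0, and each gene reaches at least 1.03 FPKM in some library, by a filter the sources do not state. The score of each merged ChIRP peak is the authors' own, deposited without a header, and served only to describe and rank peaks.

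Values were tested as log2(FPKM + 1), which understates the changes of low genes, where the mean over the libraries was 1 FPKM or more (10993 genes). A limma fit (version 3.58.1, R 4.3.3) held all 3 groups, used an intensity trend and applied no scaling of its own. Benjamini-Hochberg adjustment of the two-sided p-values ran over all tested genes, at a threshold of 0.05, and the fit was tested on simulated data. The 10 genes, the other gene lists and the alternatives were chosen with earlier results of these data known. All 10 genes are named. From each other list up to 4 genes are named, those of lowest p for the mean of both arms, and 9 partner genes whatever their result. Hsp90ab1 was added after its values were seen. Genes named beside a count of 5 or fewer were chosen after their values were seen. Start regions and gene spans are from RefSeq (GRCm38.p6). Motifs were searched on both strands of the 250 bases before each start, and MEF2 and CArG by their usual consensus. CArG had no match in the 7 regions, and 1.47% of all start regions hold it. A fit without GAP-scr A and GAP-2 A was added after the data were seen. Of the genes most like each of the 10 in profile, 1 is not reported here.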

Additional observations from a re-analysis of the deposited data

How the results depend on the processing

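For the mean of both arms, the calls of Trim54, Trim63, Unc45b and Fbxo25 held in the 15 alternatives run, and Trim55 lost its call in 4 of 15, Klhl40 in 3 of 15 and Klhl31 in 6 of 14. Leaving out 1 library at a time (leave-one-out), between 4 and 7 of the 10 genes passed for the mean of both arms, while GAP-2 had 1 to 5, GAP-2/3 had 4 to 7 and the arms against each other had 0 to 2. In these fits the arm left with 1 library is assumed to vary like the other groups. Between the arms, 1 gene passed at a threshold of 0.1, 1 without both libraries with high Rn45s and 2 with only the compared groups in the fit. The letters A and B were not treated as pairs, since the labels do not say that they mark a shared batch. The A-minus-B deviations correlated at 0.36 between GAP-scr and GAP-2 but at -0.13 and -0.18 for the other pairs of groups. Whether GAP-scr and GAP-2 share a batch by letter was not tested. With the letter as a replicate block, 1 gene passed between the arms (Fbxo32), and 7, 5 and 6 genes passed for the mean of both arms, GAP-2 and GAP-2/3.

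The sign turned only for changes that had not passed. In leave-one-out fits Fbxo32 ran from -0.37 to 0.23 for the mean of both arms and from -0.12 to 0.47 for GAP-2/3. Of the other GAP-2/3 changes, Klhl41 ran from -0.12 to 0.15 and Smyd1 from -0.076 to 0.029. Klhl31 ran from -0.047 to 0.067 between the arms. Without both libraries with high Rn45s the mean change was 0.16 for Fbxo32 and 0.027 for Klhl41, and Klhl31 differed by -0.047 between the arms. Quantile normalization and scaling to a common median gave -0.13 and -0.10 for Klhl41 in GAP-2/3, -0.023 and -0.017 for Unc45b between the arms, and -0.069 and -0.021 for Klhl31 between the arms. The cause of these turns was not tested.

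Over all tested genes, the calls in GAP-2 numbered 1604, against 937 with only the compared groups, 2567 at a threshold of 0.1 and 504 to 2624 in leave-one-out fits. Leave-one-out gave 2080 to 3948 calls for the mean of both arms (3750 with all libraries), 1538 to 4481 for GAP-2/3 (4323) and 195 to 2052 between the arms (1115). Between the arms there were also 1781 calls at a threshold of 0.1 and 2055 with only the compared groups. With a common median, 1618 genes were higher and 1556 lower for the mean of both arms (2698 and 1052 without), 708 and 648 in GAP-2, and 1928 and 1789 in GAP-2/3. Quantile normalization gave 1568 higher and 1695 lower for the mean of both arms. Klhl31 drops out at a mean of 5 FPKM, and a fit of only the compared groups gives nothing separate for the mean of both arms. FPKM values set no limit from counting.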
